A study of Mus musculus with 48 samples.

Results

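The leukotriene and prostaglandin genes Alox5ap, Ltc4s, Ptgs1, Ptgds, Ptger3 and Hpgd were followed in mouse kidney across genotype, diet and sex. These 6 genes were chosen by symbol after Ltc4s had been seen at a higher signal in kidneys of mice with the Hyp mutation, so values of the 6 for Hyp against normal are given as a description and were not tested. All probe sets annotated to these symbols on both chips of the array set were taken, which gave 8 of 45137 probe sets, all on the 430A chip, for 5 of the 6 genes, which stand among 12833 named genes that were tested. Ptgs1, the constitutive cyclooxygenase, was not named by any probe set in the annotation used and was not analysed here. A filter on low signal asked for a value above the array median on 3 or more of 24 arrays. Of the 8 probe sets, 6 passed it, and these covered all 5 genes.

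Kidney RNA came from 72 mice aged 10 weeks, in 24 pools of 3 mice each, with 3 pools in each of 8 groups. The Hyp mutation disrupts Phex on the X chromosome and gives a mouse model of X-linked hypophosphatemia. The 8 groups were hemizygous Hyp/Y males and heterozygous Hyp/+ females, set against normal male and female littermates, each on a low phosphorus or a control diet for 3 days. Every pool was hybridised to the 430A and 430B chips, 48 arrays in all, and a signal below is the deposited linear intensity of a probe set in arbitrary units. Source labels name whole kidney or kidneys, and the label of 1 normal female pool on control diet names C57BL/6J mice, while the strain of the other pools is not given in the labels. Heterozygous Hyp/+ females keep a normal copy of Phex and hemizygous Hyp/Y males do not, so sex and gene dose differ together among the Hyp pools.

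The Y-linked Eif2s3y had signals of 211.0 to 332.8 in the 12 male pools and 0.8 to 6.9 in the 12 female pools on the probe set that passed the filter. The 2 Phex probe sets stayed at or below 49.8 in all pools, under the lowest 430A array median of 164.65, and so gave no check of the genotype labels. Kidney markers were abundant: Umod, which encodes a urinary protein of the thick ascending limb, averaged 21004 in Hyp and 21557 in normal pools. Wt1, a podocyte marker, failed the filter. Array medians ran from 164.65 to 211.2 on the 430A chip, and within a group any pair of pools had a Pearson r over features of 0.923 to 0.946, where features are no replicates.

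Leukotrienes and prostaglandins are short-range lipid signals made from arachidonate that is cut out of membrane phospholipids. In the leukotriene branch, the membrane protein encoded by Alox5ap presents arachidonate to its lipoxygenase, and the synthase encoded by Ltc4s joins the resulting epoxide to glutathione to make the parent of the cysteinyl leukotrienes, a reaction best known from mast cells, eosinophils and macrophages. In the prostaglandin branch, a cyclooxygenase makes the common precursor, Ptgds isomerises it to prostaglandin D, the receptor encoded by Ptger3 senses prostaglandin E along the thick ascending limb and collecting duct and tempers salt and water reabsorption, and the dehydrogenase encoded by Hpgd inactivates prostaglandins.

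Promoter sequences of Ltc4s and Hpgd are printed because these are the genes with the largest genotype and sex differences among the 5. They come from RefSeq on build GRCm38.p6, cover 250 bases before and 50 bases after the annotated start, and are written 5′ to 3′ on the gene's strand in lower case, with matches to the searched motifs in capitals. The Ltc4s window lies at chr11:50238483-50238782 on the minus strand and the Hpgd window at chr8:56294302-56294601 on the plus strand.
Ltc4s: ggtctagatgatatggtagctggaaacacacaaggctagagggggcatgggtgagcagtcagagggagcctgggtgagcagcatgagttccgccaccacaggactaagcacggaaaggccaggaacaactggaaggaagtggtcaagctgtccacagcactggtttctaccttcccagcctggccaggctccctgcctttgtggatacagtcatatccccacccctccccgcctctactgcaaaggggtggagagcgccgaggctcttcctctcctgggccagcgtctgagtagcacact
Hpgd: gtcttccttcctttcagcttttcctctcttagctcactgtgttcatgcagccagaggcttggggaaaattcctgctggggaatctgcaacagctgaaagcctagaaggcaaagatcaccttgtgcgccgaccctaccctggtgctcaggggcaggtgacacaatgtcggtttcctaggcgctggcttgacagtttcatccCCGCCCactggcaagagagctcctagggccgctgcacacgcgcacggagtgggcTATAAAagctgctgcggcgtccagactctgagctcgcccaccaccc

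Both strands were searched for the GC box GGGCGG, the TATA box TATAAA, the androgen and glucocorticoid receptor half-site AGAACA and the nuclear receptor half-site AGGTCA. The Ltc4s window held none of these 4 motifs. The Hpgd window held 1 GC box on the antisense strand at bases 201 to 206 and 1 TATAAA match at bases 255 to 260, counted from the first base printed. Relative to the annotated start they begin at -50 and 4, so the TATAAA match lies after that start. The windows of Ptgds and Ptger3 held no match and 3 GC boxes, and Alox5ap had no entry in the promoter table. Among 32851 promoter windows of the same length, 35.7% held the GC box, 13.6% the TATA box, 19.0% the AGAACA half-site and 16.3% the AGGTCA half-site. These matches describe the letters in these windows and say nothing of binding.

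The sex comparison asked how male kidneys differ from female kidneys over both genotypes and diets, 12 pools against 12. Of the 5 genes, 4 fell in male relative to female pools, namely Hpgd, Ltc4s, Ptgds and Ptger3, and none rose, where a call is an adjusted p below 0.05 in limma across all 18637 features. Over all features, 9.79% were called lower and 6.07% higher in males, 15.9% in all. With each array scaled to its median, 63.6% of the sex calls over all features were higher in males, against 38.3% as deposited, so the split over all features depends on the scaling. In that scaling 2 of the 5 genes, Ltc4s and Hpgd, were still called, both lower in males. In whole kidney RNA, fewer cells of a type and less RNA per cell cannot be told apart.

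Hpgd, the prostaglandin-inactivating dehydrogenase, showed the largest sex difference of the 5. Its signal in the 12 male pools was 286.9 at the lowest, 345.05 at the median and 404.9 at the highest, against 544.6, 674.9 and 964.7 in the 12 female pools. The male and female pools did not overlap, and the highest male pool stayed well under the lowest female pool. The signal averaged 352 ± 35.9 in males and 697 ± 124 in females (SD, n = 12 each), 1.96-fold lower in males (log2 -0.97 ± 0.06, adjusted p = 1.71e-10, limma). Of all features, 0.907% had a more negative sex difference. From the lowest up, male groups of 3 pools averaged 311 ± 21.4 in normal on low phosphorus, 349 ± 22.9 in Hyp on low phosphorus, 365 ± 29.8 in normal on control diet and 382 ± 32.8 in Hyp on control diet (SD). Female groups followed with 585 ± 10.1 in Hyp on low phosphorus, 631 ± 75.3 in normal on low phosphorus, 741 ± 14.4 in normal on control diet and 830 ± 152 in Hyp on control diet. Neighbours in this order overlapped, except the lowest pair of male groups, the highest male and lowest female group, and the normal females on the 2 diets.

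The lower male Hpgd signal was present in every stratum of genotype and diet. The log2 difference was -0.93 ± 0.09 among Hyp pools and -1.02 ± 0.09 among normal pools (adjusted p = 2.01e-07 and 3.88e-08, limma). It was -0.88 ± 0.09 on the low phosphorus diet and -1.07 ± 0.09 on the control diet (adjusted p = 4.17e-07 and 1.94e-08, limma). Within each of these strata the 6 male pools lay below the 6 female pools, and neither the genotype by sex nor the diet by sex interaction of Hpgd passed the test (adjusted p = 0.94 and 0.915, limma).

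Ltc4s, the cysteinyl leukotriene synthase, fell in males by 0.57 ± 0.10 on the log2 scale, which is 1.49-fold (adjusted p = 0.000298, limma). Signals in male pools were 138.0, 289.8 and 584.7 at the lowest, median and highest, against 175.4, 483.8 and 795.1 in female pools. The sexes overlapped, over all pools and within each genotype. Within the Hyp pools the 6 males had 322.9 to 584.7 with a median of 415.3, and the 6 females had 571.4 to 795.1 with a median of 708.0, so that a single male pool, on control diet, reached above the lowest female pool. The difference was -0.72 ± 0.14 in Hyp pools (adjusted p = 0.00212) and -0.43 ± 0.14 in normal pools (adjusted p = 0.0631), and these 2 differences were themselves not told apart (genotype by sex -0.29 ± 0.20, adjusted p = 0.869, limma).

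Ptgds, the prostaglandin D synthase, fell in males by 0.29 ± 0.07 on the log2 scale (adjusted p = 0.00447, limma). Its signal was 269.8 at the lowest, 331.35 at the median and 417.1 at the highest in male pools, against 297.5, 418.0 and 501.2 in female pools. The sexes overlapped over most of their range, with 3 male pools below every female pool. Group means ran from 295 ± 34.8 in Hyp males on control diet to 480.2 ± 20.5 in normal females on low phosphorus (SD, n = 3 each). With arrays scaled to their median the Ptgds difference was -0.19 (adjusted p = 0.0783, limma) and was not called. The second Ptgds probe set that passed the filter, exceeding its array's median on 11 arrays, gave -0.50 ± 0.13 in the fit of every probe set (adjusted p = 0.0264, limma), and on it 10 male pools lay below every female pool.

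Ptger3, the prostaglandin E receptor, fell in males by 0.26 ± 0.08 on the log2 scale (adjusted p = 0.0354, limma). Male pools had 458.5, 608.8 and 950.9 at the lowest, median and highest, and female pools had 540.8, 710.05 and 1132.8. The ranges overlapped over most of their length. Group means ran from 904 ± 203 in Hyp females on control diet to 505 ± 47.2 in normal males on low phosphorus (SD, n = 3 each). The Ptger3 sex call was lost without any 1 of 13 of the 24 pools, where the adjusted p lay between 0.0505 and 0.0678, with arrays scaled to their median (-0.16, adjusted p = 0.301) and when no filter was applied (adjusted p = 0.0682). The other Ptger3 probe set, which failed the filter with 0 arrays above their median, gave -0.09 ± 0.46 (adjusted p = 0.947, limma).

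Alox5ap, which hands arachidonate to the lipoxygenase, gave -0.29 ± 0.12 and was not called (adjusted p = 0.114, limma). Male pools had 106.1 to 217.5 with a median of 161.85, and female pools had 138.8 to 298.8 with a median of 183.85. The probe set exceeded its array's median on 10 of 24 arrays, so these values lie close to the middle of the array's signals. The 95% interval of the difference, not adjusted for the number of features, ran from -0.54 to -0.04. The estimate itself matched that of Ptgds after rounding, with a larger standard error.

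**Figure D1:**
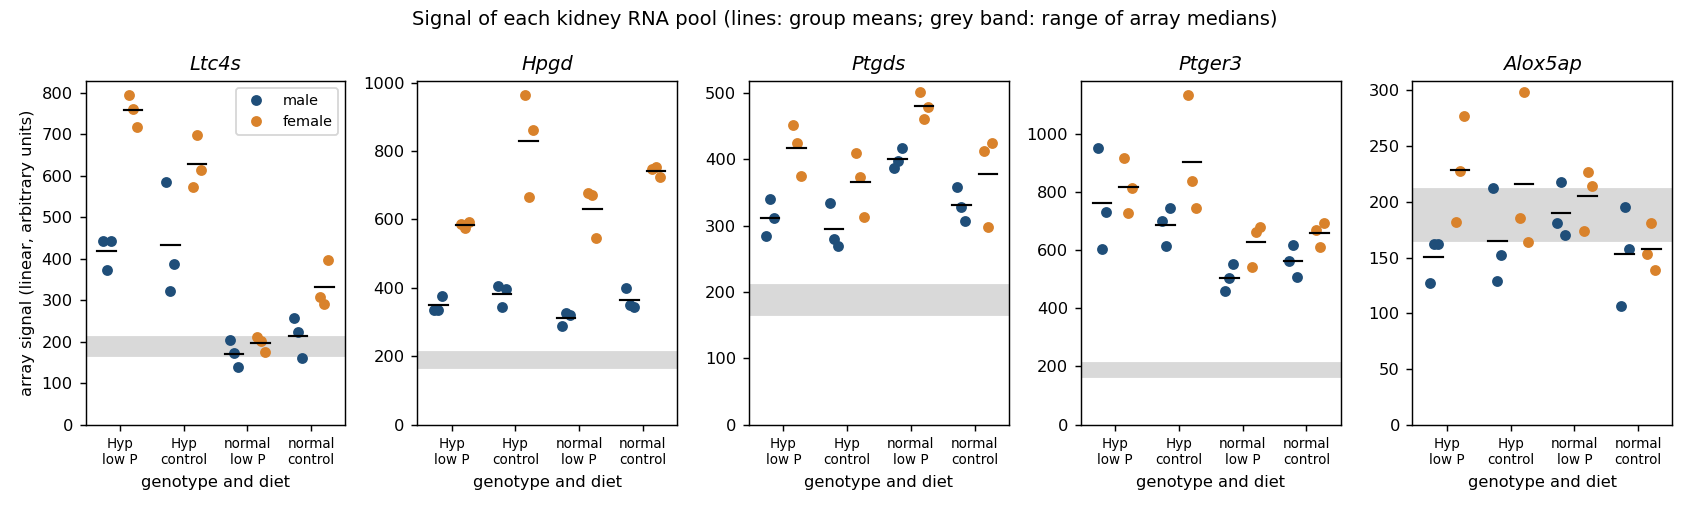
Signal of each of the 24 pools (y axis, linear arbitrary units, from 0) for the 5 genes by genotype and diet (x axis), male in blue left of female in orange, with black lines at the means of 3 pools and a grey band over the array medians. Hpgd separates by sex in every group (286.9 to 404.9 in males, 544.6 to 964.7 in females), and Ltc4s is highest in Hyp females on the low phosphorus diet (717.2 to 795.1).

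The diet comparison asked what 3 days of low phosphorus did to the same kidneys. Of the 5 genes, 1 was called, Hpgd, which fell on the low phosphorus diet. Over all features 0.354% were called lower and 0.419% higher on the low phosphorus diet, 0.773% in all. Hpgd had 286.9, 459.75 and 677.1 at the lowest, median and highest in 12 low phosphorus pools, against 344.8, 534.95 and 964.7 in 12 control pools. The ranges overlapped, over all pools and within each sex.

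The 6 female pools on low phosphorus had 544.6 to 677.1 and the 6 on control diet 665.0 to 964.7, with a median of 590.3 against 749.45. Among males the values were 286.9 to 374.9 on low phosphorus and 344.8 to 404.9 on control, medians 330.7 and 373.85. In both sexes the low phosphorus pools were mostly the lower ones, with overlap.

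Over all pools the Hpgd diet difference was -0.27 ± 0.06 on the log2 scale, 1.21-fold lower on low phosphorus (adjusted p = 0.0407, limma). This call lay near the threshold. It was lost without any 1 of 18 of the 24 pools, at adjusted p of 0.0546 to 0.0867. It was also lost with arrays scaled to their median (-0.29, adjusted p = 0.102) and when no filter was applied (adjusted p = 0.0933), while the difference stayed between -0.31 and -0.24 without each pool in turn. By sex it was -0.18 ± 0.09 in males and -0.36 ± 0.09 in females (adjusted p = 0.655 and 0.124), and the diet by sex interaction was 0.18 ± 0.12 (adjusted p = 0.915, limma).

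Ptgds leaned the other way on the low phosphorus diet without passing the test (0.23 ± 0.07, adjusted p = 0.169, limma). It had 284.2 to 501.2 with a median of 407.3 on low phosphorus and 269.8 to 424.0 with a median of 331.35 on control. Among normal pools the 6 on low phosphorus lay between 386.5 and 501.2 and the 6 on control between 297.5 and 424.0 (0.32 ± 0.10, adjusted p = 0.231, limma). Of the 12 low phosphorus pools, 5 exceeded every control pool.

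The remaining genes were not called for diet. Alox5ap gave 0.18 ± 0.12 (adjusted p = 0.723, interval -0.07 to 0.43), and Ptger3 gave -0.06 ± 0.08 (adjusted p = 0.908, interval -0.23 to 0.11, limma). Ltc4s gave -0.20 ± 0.10 over both genotypes (adjusted p = 0.564, interval -0.40 to 0.01, limma).

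The Ltc4s values on the 2 diets were read separately in Hyp and in normal kidneys. The 6 Hyp pools on low phosphorus had 372.4, 579.95 and 795.1 at the lowest, median and highest, against 322.9, 578.05 and 698.8 in the 6 Hyp pools on control diet. The 6 normal pools on low phosphorus had 138.0, 188.75 and 210.3, against 159.5, 273.2 and 396.2 in the 6 normal pools on control diet. Hyp medians on the 2 diets were almost equal, but they pool the sexes. On low phosphorus the Hyp median falls in a gap between males (up to 442.7) and females (from 717.2). Hyp means were 588 on low phosphorus and 530 on control diet. The normal low phosphorus pools sat at the bottom of the normal control range.

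In log2 terms the Ltc4s diet difference was 0.14 ± 0.14 in Hyp (interval -0.16 to 0.43, adjusted p = 0.95) and -0.53 ± 0.14 in normal pools (interval -0.82 to -0.23, unadjusted p = 0.00127, adjusted p = 0.132, limma). The test of the difference between them, the genotype by diet interaction, gave 0.66 ± 0.20 with an interval of 0.25 to 1.08 and an unadjusted p of 0.0033. After adjustment over all features it did not pass (adjusted p = 0.715, limma), in a comparison where 3 features, 0.0161% of all, were called. The adjusted p of this interaction lay between 0.28 and 0.989 over the alternatives tried, and its value between 0.56 and 0.78.

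Ltc4s was then read within each sex and genotype. Normal females on low phosphorus had Ltc4s signals of 210.3, 202.1 and 175.4, against 306.9, 289.7 and 396.2 in normal females on control diet, and these groups of 3 pools did not overlap (-0.75 ± 0.20, adjusted p = 0.253, limma). Normal males had 203.3, 172.3 and 138.0 on low phosphorus and 256.7, 223.6 and 159.5 on control diet (-0.31 ± 0.20, adjusted p = 0.886, limma). In normal males the diets overlapped, with the lowest pool on low phosphorus. Hyp females had 795.1, 759.8 and 717.2 on low phosphorus and 571.4, 698.8 and 613.1 on control diet (0.27 ± 0.20, adjusted p = 0.813, limma). Hyp males had 442.7, 372.4 and 442.5 on low phosphorus and 584.7, 322.9 and 388.1 on control diet, with a fitted difference of 0.00 and an interval of -0.42 to 0.41. In the Hyp females every low phosphorus pool lay above every control pool, and no diet difference within 1 sex and genotype passed the adjusted test.

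None of the other interactions was called for any of the 5 genes. The genotype by sex term was called for 0.0805% of all features and the diet by sex term for 0 of 18637, where 1018 had an unadjusted p below 0.05 in limma. For genotype by diet, Alox5ap gave -0.36 ± 0.24, Ptgds -0.18 ± 0.14, Ptger3 0.12 ± 0.16 and Hpgd -0.08 ± 0.12 (adjusted p from 0.939 to 0.973, limma). The lowest adjusted p among the genotype by sex terms was 0.851, that of Alox5ap.

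**Figure D2:**
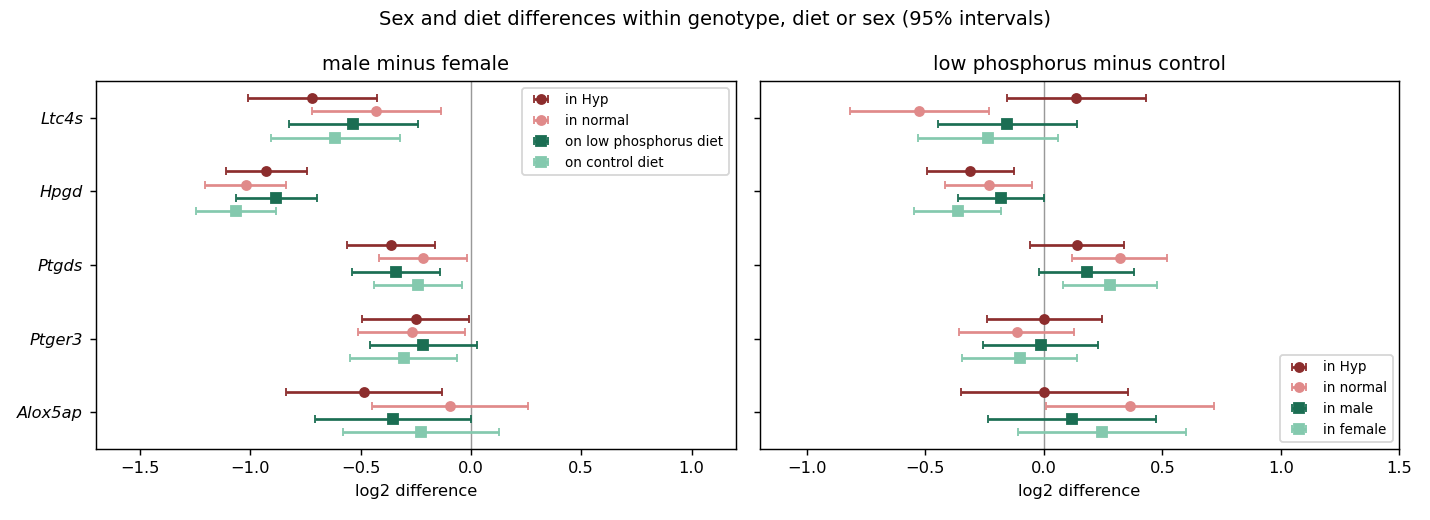
Log2 differences of the 5 genes (x axis) for male minus female, left, and low phosphorus minus control, right, within each genotype, diet or sex, with 95% intervals. All male minus female estimates lie below 0, and the Ltc4s diet estimate is 0.14 in Hyp pools and -0.53 in normal pools.

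The genotype comparison set 12 Hyp pools against 12 normal pools and gave the values by which Ltc4s drew attention. Ltc4s signals were 322.9, 578.05 and 795.1 at the lowest, median and highest in Hyp pools, against 138.0, 206.8 and 396.2 in normal pools. Hyp and normal pools overlapped only through the normal females on control diet and the Hyp males, and 9 of 12 Hyp pools lay above every normal pool. The mean was 559 ± 163 in Hyp and 228 ± 73.5 in normal pools (SD, n = 12 each), 2.46-fold higher in Hyp (log2 1.30 ± 0.10), and 0.14% of all features had a larger absolute genotype difference. Over all features 1.05% were called higher and 0.912% lower in Hyp, 1.96% in all.

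Within each sex the 6 Hyp pools lay above the 6 normal pools. The Ltc4s difference was 1.15 ± 0.14 in males, where the Hyp mice are hemizygous, and 1.44 ± 0.14 in females, where they are heterozygous. It was 1.63 ± 0.14 on low phosphorus, where the genotypes did not overlap, and 0.97 ± 0.14 on control diet, where they did. Leaving out each pool in turn kept the Ltc4s difference over both sexes and diets between 1.24 and 1.34. That range describes the values by which Ltc4s drew attention and is no test of them.

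Ordered by mean Ltc4s signal, Hyp females on low phosphorus came first with 757 ± 39.0 (SD, n = 3 in each group) and Hyp females on control diet followed with 628 ± 65.0, and these neighbours did not overlap. Below them, Hyp males had 419 ± 40.5 on low phosphorus and 432 ± 136 on control diet, which overlapped each other, and the Hyp males on control diet reached into the Hyp females on control. Normal females on control diet had 331 ± 57.2, overlapping the Hyp males and lying above every normal male pool. At the bottom, from the lowest up, were normal males on low phosphorus with 171 ± 32.7, normal females on low phosphorus with 196 ± 18.2 and normal males on control diet with 213 ± 49.4. These 3 groups overlapped one another and lay around the array medians, so their order is not resolved.

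Ptger3 also stood higher in Hyp pools. Its signal was 602.5, 743.6 and 1132.8 at the lowest, median and highest in Hyp pools, against 458.5, 587.6 and 693.9 in normal pools. Of the 12 Hyp pools, 10 lay above every normal pool, and among females the genotypes did not overlap (726.2 to 1132.8 in Hyp, 540.8 to 693.9 in normal). The difference was 0.42 ± 0.08 on the log2 scale, 0.43 ± 0.12 in males and 0.41 ± 0.12 in females, and 6.97% of all features had a larger absolute difference. The other Ptger3 probe set, which never exceeded its array's median, gave a genotype difference of 0.05.

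Ptgds was lower in Hyp, and Hpgd and Alox5ap were close to level. Ptgds had 269.8 to 451.1 with a median of 337.05 in Hyp pools and 297.5 to 501.2 with a median of 404.75 in normal pools (-0.20 ± 0.07). Its second probe set gave -0.03 ± 0.13, so the 2 probe sets differ in size here. Hpgd gave 0.07 ± 0.06 with 334.3 to 964.7 in Hyp and 286.9 to 752.5 in normal pools. Alox5ap gave 0.09 ± 0.12 with 127.0 to 298.8 in Hyp and 106.1 to 227.2 in normal pools.

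The 2 remaining probe sets, 1 for Hpgd and 1 for Ptger3, never exceeded their array's median and ran from 6.6 to 101.7 and from 4.1 to 66.8. They failed the filter, and in the fit of every probe set none of their diet, sex or interaction differences was called. The Hpgd one gave a sex difference of -1.23 ± 0.45 (adjusted p = 0.117, limma), the same sign as the stronger probe set. The stronger Hpgd probe set is of a class that may match more than 1 transcript.

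**Figure D3:**
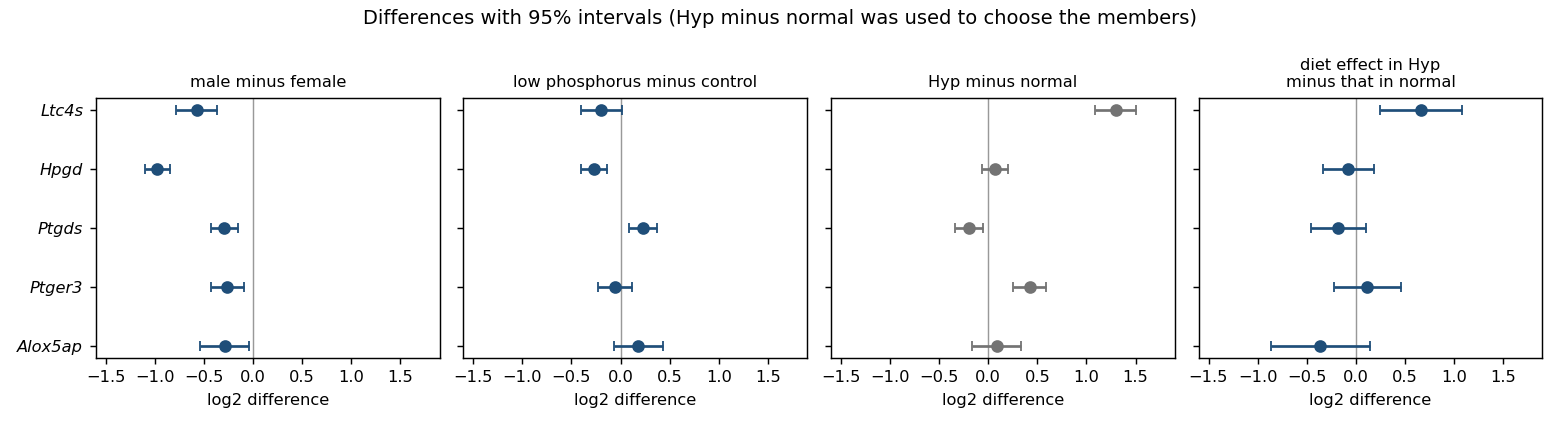
Log2 differences with 95% intervals (x axis) for the 5 genes: male minus female, low phosphorus minus control, Hyp minus normal in grey because this comparison was used to choose the genes, and the diet difference in Hyp minus that in normal. Ltc4s has the largest Hyp minus normal value (1.30) and Hpgd the most negative male minus female value (-0.97).

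The 5 genes did not move as a block across the 24 pools. As a description over pools that share genotype, diet and sex, Pearson's r of log2 signal ran from -0.14 for Ltc4s with Ptgds to 0.77 for Ltc4s with Ptger3. After each pool's group mean was subtracted, r ran from -0.30 for Hpgd with Alox5ap to 0.39 for Ltc4s with Ptgds. The named genes whose pattern was most like that of Ltc4s were Slc13a1, the renal sodium sulfate cotransporter (r = 0.92), Rnase4 (r = 0.89) and Dusp6, a phosphatase of ERK kinases (r = 0.87). Those most like Hpgd were Wfdc2 (r = 0.96), the glutathione transferase Gsta4 (r = 0.95) and ccdc198 (r = 0.94). For Ptger3, Bex1, Ptges3l and the protease Ctsc each had r = 0.79, and for Ptgds and Alox5ap the closest were BC005537 (r = 0.80) and Otulin (r = 0.73).

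A wider list of 55 other eicosanoid genes, grouped by role, was read beside the 5. Of these, 48 had a named probe set and 27 passed the filter. For sex, 17 of the 27 were called, 2 higher and 15 lower in males, which is 63% against the 15.9% of all features, and the list's median difference was -0.35 against -0.05 over all features. With arrays scaled to their median the list had 3 higher and 12 lower in males. Pla2g4a, Lta4h and Tbxas1 were no longer called, and a gene not called as deposited was called higher in males. Lta4h and Tbxas1 also lost the call without any 1 of 7 and 6 of the 24 pools.

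Prostanoid synthesis genes were called for sex in 6 of 6 cases, 5 of them lower in males. Cbr1, a carbonyl reductase that converts prostaglandin E to prostaglandin F, had mean signals of 598 ± 83.7 in males and 3726 ± 346 in females (SD, n = 12 each; log2 -2.64 ± 0.06, adjusted p = 1.29e-17, limma). Prxl2b, a prostaglandin F synthase, gave -0.73 ± 0.09, the prostacyclin synthase Ptgis -0.61 ± 0.13, the thromboxane synthase Tbxas1 -0.36 ± 0.11 and the inducible prostaglandin E synthase Ptges -0.35 ± 0.09. Ptges2, another prostaglandin E synthase, was the exception and rose in males by 0.20 ± 0.06 (adjusted p = 0.0233, limma).

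Prostanoid receptor, transport and breakdown genes were called lower in males in 5 of 7 cases, with Tbxa2r and Ptgr2 not called. Abcc4, an exporter of prostaglandins, fell in males by 1.07 ± 0.11 on the log2 scale, with 464 ± 90.2 in males and 974 ± 172 in females. The prostaglandin uptake carrier Slco2a1 gave -0.59 ± 0.07 and Abcc1, an exporter of cysteinyl leukotrienes, -0.48 ± 0.08. Among receptors, Ptger4 gave -0.54 ± 0.10 and the prostaglandin F receptor Ptgfr -0.43 ± 0.08, all with adjusted p of 0.000507 or below (limma).

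Of the genes that release arachidonate, 2 of 6 were called, both lower in males: Mgll, which frees arachidonate from monoacylglycerol (-0.79 ± 0.08), and the cytosolic phospholipase Pla2g4a (-0.35 ± 0.09). In the list's group of lipoxygenase and leukotriene synthesis genes, 3 of 5 were called, all lower in males. They were the microsomal glutathione transferases Mgst1 (-0.63 ± 0.07) and Mgst3 (-0.61 ± 0.09) and the leukotriene A hydrolase Lta4h (-0.26 ± 0.08). A place in this group does not mean that a gene makes leukotrienes. Ptgr1, a reductase that breaks down leukotriene B, rose in males by 0.94 ± 0.11 (adjusted p = 4.08e-06, limma), with 452 ± 45.2 in males and 245 ± 65.6 in females. Alox5, the lipoxygenase that Alox5ap serves, averaged 90.2 in males and 91.5 in females and was not called (adjusted p = 0.947), and none of the 4 leukotriene receptor genes passed the filter.

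For genotype, 3 of the 27 were called, 11.1% against 1.96% of all features, with a list median of 0.05 against 0.00. Tbxas1 rose in Hyp by 0.45 ± 0.11 (adjusted p = 0.032, limma), with 336 ± 68.3 in Hyp and 248 ± 59.1 in normal pools. Mgst1 rose by 0.27 ± 0.07 (adjusted p = 0.0441), and Dpep1, the dipeptidase that trims leukotriene D to leukotriene E, fell by 0.19 ± 0.05 in Hyp (adjusted p = 0.0466, limma). Ptgfr, with the next smallest adjusted p, gave -0.25 ± 0.08 (0.136). These calls lie near the threshold and were lost without any 1 of 14, 18 and 21 of the 24 pools for Tbxas1, Mgst1 and Dpep1.

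For diet, 1 of the 27 was called, Mgll, which rose on low phosphorus by 0.33 ± 0.08 (adjusted p = 0.0497, limma), 3.7% against 0.773% of all features. Its signal averaged 915 ± 289.6 on low phosphorus and 723 ± 214 on control diet (SD, n = 12 each), and the call was lost without any 1 of 20 pools. Dpep1 gave 0.20 ± 0.05 (adjusted p = 0.0595), Mgst1 -0.19 ± 0.07 (0.335) and Ptgis 0.31 ± 0.13 (0.427). No interaction was called for any of the 27.

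**Figure D4:**
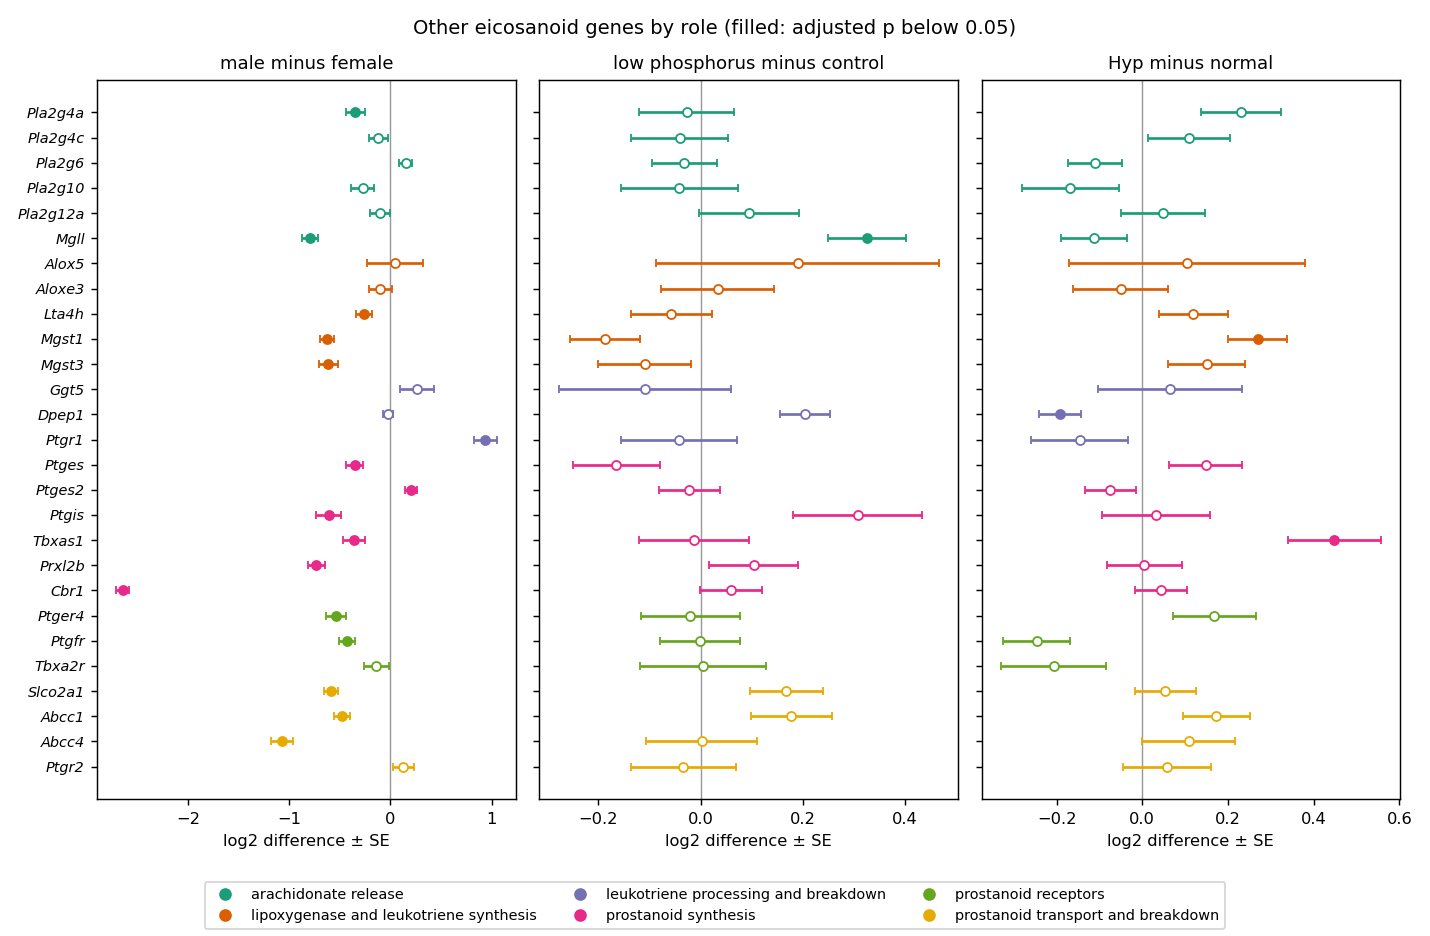
Log2 differences ± SE (x axis) of the 27 other eicosanoid genes that passed the filter, coloured by role and filled where the adjusted p is below 0.05, for male minus female, low phosphorus minus control and Hyp minus normal. Filled points are 17, 1 and 3, and 15 of the 17 for male minus female lie below 0, with Cbr1 farthest at -2.64.

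Cell type markers were read beside these results because leukotriene synthesis is best known in blood-derived cells. Of 7 mast cell markers, Kit and Hdc passed the filter, neither was called for genotype, and the summed signal of the 7 ranged from 407.7 to 855.4 in Hyp pools and from 374.9 to 985.8 in normal pools. Of 9 macrophage and leukocyte markers, 6 passed and none was called for genotype, with sums of 3857 to 5151 in Hyp and 3463 to 5150.0 in normal pools. Csf1r weighs most on these sums, at a mean of 2854 in Hyp and 2610 in normal pools. The median log2 difference of the 6 was 0.11. The 4 eosinophil and neutrophil markers, Prg2, Epx, S100a8 and S100a9, all failed the filter, and no marker was at 0. Kit averaged 242 ± 39.7 in Hyp and 191.5 ± 42.3 in normal pools (SD, n = 12 each; log2 0.35 ± 0.09, adjusted p = 0.0585, limma). The part of these cell types in the Ltc4s values was not tested.

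Some nephron markers and the fat marker Car3 moved with genotype. Over all 48 tested markers, 7 were called higher and 6 lower in Hyp, 27.1% against 1.96% of all features. Called in Hyp were 3 of 4 markers of the straight proximal tubule, higher, 3 of 4 of the convoluted proximal tubule, lower, 3 of 4 measured intercalated cell markers, higher, and all 3 distal convoluted tubule markers, 1 higher and 2 lower. No call was made among the tested markers of the thick ascending limb (3), principal cells (4) and podocytes (2). Summed signals of the segments with called markers overlapped between genotypes over both sexes. The straight proximal tubule sum was 6830 to 27425 in Hyp and 6014 to 21780 in normal pools. By sex it was 15557 to 27425 in males and 6014 to 8564 in females, so the genotype ranges mostly hold the sex difference and do not compare the genotypes. The intercalated cell sum was 2710 to 3975 in Hyp and 1958 to 3469 in normal pools. Of the 3 fat markers measured, Car3, a carbonic anhydrase abundant in fat, was called lower in Hyp, at 764 ± 195 in Hyp and 2146 ± 747 in normal pools (SD, n = 12 each; log2 -1.45 ± 0.12, adjusted p = 1.96e-07, limma). Adipoq and Retn were not called for genotype. The fat sum was 1027.5 to 1813.6 in Hyp and 1726.5 to 3715 in normal pools, and its gap is that of Car3. Adipoq averaged 264 in Hyp and 239 in normal pools, and Retn 278 and 302. The part of nephron and fat markers in the Ltc4s and Ptger3 values was not tested.

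For sex, 24 of 48 tested markers were called, 19 lower and 5 higher in males, which is 50% against 15.9% of all features. Their median difference was -0.22 against -0.05 over all features. The markers were read as deposited only, while over all features the share of sex calls higher in males went from 38.3% to 63.6% under median scaling. Endothelial markers summed to 2326 to 3176 in males and 3167 to 3702 in females, 3 of 5 lower in males. Leukocyte markers were called lower in 2 of 6 cases (Lyz2 and Cd14), with sums of 3463 to 5151 in males and 3611 to 5150.0 in females. Csf1r weighs most on these sums too, at a mean of 2775 in males and 2690 in females. Mast cell markers summed to 374.9 to 681.3 in males and 534.4 to 985.8 in females, where only Hdc, the histidine decarboxylase that makes histamine, was called. Hdc averaged 6.97 in males and 148 in females and so weighs on this sum. Kit, the other tested marker of this list, was not called for sex (adjusted p = 0.0667, limma). The part of these markers in the sex differences of Hpgd, Ltc4s, Ptgds and Ptger3 was not tested.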

How the data were processed

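The authors' deposited intensity values, 1 linear signal per probe set and array, came from GCOS 1.2 according to the submitters' processing notes; which algorithm and scaling target it ran with is not given in the sources used here. On each array the 100 probe sets shared by both chips had a 2% trimmed mean of 1200. RNA was extracted with TRIzol and labelled by the standard Affymetrix protocol, per the labels' protocols. With no read depth, precision is limited by the number of arrays.

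Probe sets were named from the platform annotation, with symbols updated through Entrez identifiers (34837 matched; 35041 had 1 symbol, 936 several, 9160 none). The kept probe set of highest mean log2 signal stood for its gene, with 430A preferred; others without a single symbol were tested unnamed. Values under 1 were set to 1, and log2 signals were fitted per chip with limma 3.58.1 (R 4.3.3) as 8 group means, which leaves the pools of all groups to share 1 estimate of the spread. Benjamini-Hochberg adjustment ran over both chips' 18637 features. Values after ± are standard errors unless SD is named. The fit was tried on simulated data with known diet differences and independent noise. The other contrasts were not checked in this way.

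The 5 genes, the wider list and the marker lists were chosen with earlier results of these data known. From the wider list, genes called in any comparison and the 4 smallest adjusted p per main effect were named; 3 genes of highest Pearson r were named per gene. Replicates are pools, so p-values measure the spread between pools of 3 mice. Alternatives were a pseudocount of 50, median scaling, quantile normalization, no filter, a filter of 12 arrays, a series number block, adjustment within each chip, a trended robust fit, other probe sets and leaving out each pool.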

Additional observations from a re-analysis of the deposited data

How the results depend on the processing

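Of 1447 alternative values for 45 single-gene results, 1295 kept their direction and their side of the threshold, 141 lost a call, 7 gained one, 2 reversed and 2 moved. Both reversals came with weaker probe sets and were uncalled either way: Ptgds genotype by diet was 0.0737 and Ptger3 diet 0.47. The 2 that moved were the Ptgds and Ptger3 genotype differences, also with weaker probe sets. Among all features, 94 were called for diet with no filter, 8 for genotype by diet and 28 for genotype by sex with a trended robust fit. Diet by sex gave 1 with the pseudocount, 1 with no filter and 3 with the trended fit. Of the 5 genes, 0 were called for diet under median scaling and with no filter, and 2 for sex under median scaling. Of the wider list, genotype gave 1 under median scaling and 0 with no filter, and diet gave 0 under median scaling, quantile normalization and no filter. Diet gave 2 of the wider list with the stricter filter, the replicate block, adjustment within each chip and the trended fit.

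Leaving out each pool in turn gave 3 to 5 features for genotype by diet (5 without normal female control pool 3), 13 to 24 for genotype by sex (24 without Hyp female control pool 1) and 0 to 1 for diet by sex (1 without Hyp male low phosphorus pool 1, normal male low phosphorus pool 1 or 2, or normal female low phosphorus pool 1 or 3). It gave 0 to 1 of the 5 genes for diet, 0 to 2 of the wider list for diet and 0 to 3 for genotype. The Hpgd diet call held without each of Hyp female control pool 2, Hyp male control pool 2, Hyp male low phosphorus pool 3, normal female low phosphorus pools 1 and 2 and normal male control pool 3. Deviations of pools sharing a series number correlated weakly, at -0.05 to 0.09 with a median of 0.028 over 84 pairs, 0 of them over 0.1. Pools with different numbers had a median of -0.015 over 168 pairs. By mean correlation, 22 of 24 pools were most like the pools of their own number. A weak likeness by series number is thus present, and the main fit did not model it. With series number as a block, 438 features were called for genotype, 185 for diet and 3251 for sex, against 365, 144 and 2955 without it. The counts for the 5 genes with the block were 1 for diet and 4 for sex. Probe sets near the array medians, such as those of Alox5ap and of Ltc4s in normal pools, limit what small differences could be seen. Causes of these changes were not tested.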

Other observations

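Within groups, the features that varied most closely with each gene differed from those above. After group means were subtracted, the named genes most like Ltc4s were Aspa (r = 0.81), Prss12 and Zbtb26 (r = 0.78 each), and those most like Hpgd were Hsf2bp (r = 0.80), Dock10 (r = 0.76) and Kctd6 (r = 0.74). For Ptgds they were Me3 (r = 0.80), Eml5 (r = 0.79) and Pggt1b (r = 0.78), for Alox5ap Gm38402 (r = 0.84), Cables2 (r = 0.82) and Slx4ip (r = 0.77), and for Ptger3 Rnf145 (r = 0.77), Metap2 (r = 0.76) and Dcaf10 (r = 0.75). These values are a description over 24 pools, picked as the highest among all named features, and Slx4ip was the 1 name that also stood among the 3 highest for the same gene before the group means were removed.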
